A study of Orbicella faveolata with 56 samples.

Results

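The host transcripts whose levels varied least were sought in fragments of Orbicella faveolata, a reef-building coral of the Caribbean that houses single-celled algae in its tissue. The host table holds 87440 rows, each 1 isoform identifier, and 8949 of them had a mean of 20 to 500 CPM (counts scaled to a total of 1000000 host counts per library) over 55 libraries. Of those 8949, the 200 with the smallest standard deviation (SD) of log2(CPM + 1) over the 55 libraries were taken, which is 2.235% of that level range. The identifiers come from the table and are paired with no gene name in the sources used here, so no transcript could be given a function and coral tissue could not be checked against marker genes.

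Corals of inshore or of offshore origin in the Florida Keys were divided into fragments, moved to a site inshore or offshore, and afterwards taken to 30 or 32 °C over 7 days and kept there for 6 days. In inshore-origin corals, each of the 4 conditions (inshore site at 30 °C, inshore site at 32 °C, offshore site at 30 °C, offshore site at 32 °C) has 8 libraries. In offshore-origin corals each has 6, except the inshore site at 32 °C with 5. The 8 inshore-origin corals came from 3 collection sites and carry 6 genotype labels, since A3, A5 and A6 are 3 corals of genotype In1. The 6 offshore-origin corals carry 6 genotype labels and came from 1 collection site, so origin and that site cannot be told apart. The study's title names heat tolerance as its question. The libraries are bulk, so fewer cells of a type and less RNA per cell cannot be told apart.

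A transcript that keeps its level across treatments is useful as a reference: in quantitative PCR and in scaling RNA libraries, other genes are measured against it. Steadiness is a property of a transcript in a given tissue and treatment, and a gene used as a reference in one setting can move in another. Heat is a demanding setting in corals, because it can break the partnership with the algae (bleaching) and is known to raise transcripts of chaperones and of enzymes against oxidative damage. Fragments of 1 coral are genetically the same animal, so a design that places them in several conditions separates differences between conditions from differences between genotypes.

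Host totals ran from 2850075 to 7239229 estimated counts per library, with a median of 5021488. In 7 libraries the mean correlation with the other libraries lay more than 3 median absolute deviations below the median. Libraries numbered 1 to 16 in the labels are all at 30 °C, so a difference between numbers and part of the heat difference cannot be told apart. Both facts touch results below, where values without the 7 libraries or with a term for the numbers are given beside them.

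The 200 transcripts had SDs from 0.0977 to 0.142 on the log2(CPM + 1) scale, with a median of 0.128, against a median of 0.314 over the 8949. These SDs chose the transcripts and are given as a description. The ratio of the highest to the lowest of the 55 libraries ran from 1.351 to 2.001, with a median of 1.54, against a median of 3.01 over the level range, and in 199 of the 200 it stayed under 2. The edge of the set was not a gap. The last transcripts inside, OFAVBQ_DN217715_c0_g1_i10 and OFAVBQ_DN224212_c3_g3_i1, had SDs of 0.1416 and 0.1417, and the first outside, OFAVBQ_DN211703_c3_g2_i4 and OFAVBQ_DN222900_c1_g1_i4, had 0.1417 and 0.1418.

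Mean levels of the 200 ran from 26.6 to 425 CPM with a median of 115.5, against 46.3 over the level range. Of 4877 transcripts between 20 and 50 CPM, 18 were in the set, and of 2355 between 50 and 100 CPM, 67 were. Between 100 and 200 CPM it was 83 of 1229, and between 200 and 500 CPM 32 of 488. Counting error was computed beside these counts, and its part in them was not tested. At 20 CPM the median library holds about 100.4 counts of a transcript, which alone gives an SD of 0.137 on the log2 scale, close to the largest SD in the set. At 500 CPM it gives 0.0287. Between 20 and 50 CPM the median SD was 0.345 and the median SD from counting 0.12. In 538 of those 4877 transcripts the SD from counting was above the largest SD in the set. Over the 200, counting error made up a median of 23.5% of the variance, against 8.18% over the level range, and more than 50% of it in 22. In 1 transcript, OFAVBQ_DN207968_c0_g1_i3, which has the lowest mean of the set, the SD of 0.112 was below its counting SD of 0.122. Its libraries ran from 22.3 to 31.5 CPM. OFAVBQ_DN223669_c2_g1_i6 has the highest mean, with libraries from 322.9 to 521.9 CPM and an SD of 0.11, of which counting gives 0.0316.

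**Figure D1:**
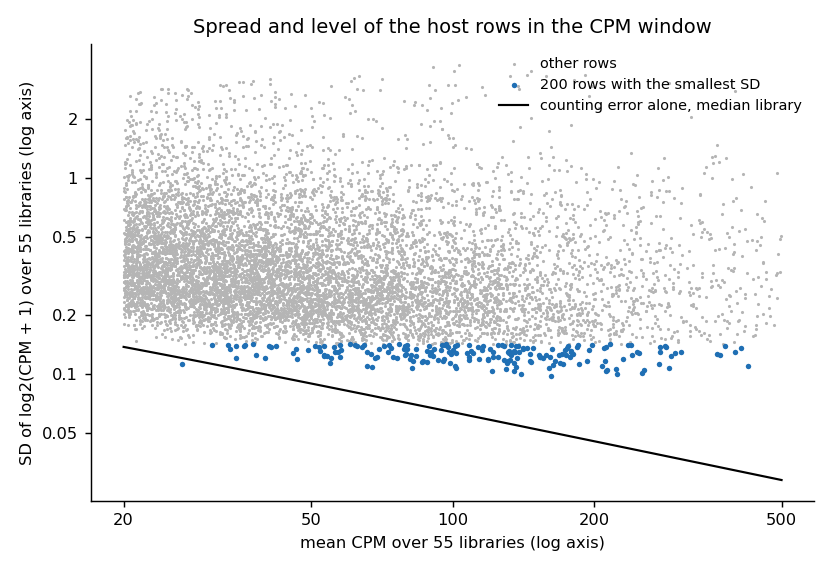
Mean CPM (x axis, log) and SD of log2(CPM + 1) over 55 libraries (y axis, log) for the 8949 host transcripts between 20 and 500 CPM. Blue points are the 200 with the smallest SD, grey points the others, and the line is the SD that counting error alone gives in a library of median total. The blue points thin out toward 20 CPM, where the line reaches 0.137.

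The steadiest transcript was OFAVBQ_DN225035_c1_g1_i4, at 143.7 CPM in its lowest library, 160.4 in the median and 203.3 in the highest. Inshore-origin corals held at the inshore site gave 172.8 ± 17.02 CPM (SD, n = 8) at 30 °C and 160.3 ± 11.6 (n = 8) at 32 °C. At the offshore site the same corals gave 165.6 ± 8.87 at 30 °C and 158.9 ± 8.27 at 32 °C (n = 8 each). All 8 groups overlapped, and the highest library was coral A6 at the inshore site and 30 °C, 1 of the 7 that stand apart.

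In offshore-origin corals OFAVBQ_DN225035_c1_g1_i4 measured 162.2 ± 9.91 CPM (n = 6) at 30 °C and 152.8 ± 6.34 (n = 5) at 32 °C at the inshore site. At the offshore site it measured 158.5 ± 9.08 at 30 °C and 159.3 ± 7.52 at 32 °C (n = 6 each). The 8 group means thus lay between 152.8 and 172.8 CPM.

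The next was OFAVBQ_DN219024_c2_g1_i2, at 117 CPM in its lowest library and 158.9 in its highest. It had a median of 140.4 CPM over 28 libraries at 30 °C and 141 over 27 at 32 °C, and 140.1 at the inshore and 141.1 at the offshore site. Its group means ran from 132.9 ± 14.9 (n = 6, offshore origin, inshore site, 30 °C) to 143.7 ± 11.1 (n = 8, inshore origin, inshore site, 32 °C). Coral C2 gave its lowest library at each temperature among the offshore-origin corals kept at the offshore site, and every group overlapped every other.

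OFAVBQ_DN216051_c2_g5_i7 had a median of 223.6 CPM at 30 °C and 224.1 at 32 °C. Its lowest library, 178.2 CPM, was coral B3 at the inshore site and 32 °C, and its highest, 260.8, was coral C2 at the same site and temperature. OFAVBQ_DN223165_c1_g1_i1 had a median of 256.2 CPM at 30 °C and 247.4 at 32 °C. Its lowest library, 190.5 CPM, was again coral B3 at the inshore site and 32 °C, and its highest, 294.3, was coral C4 in that condition. In both transcripts the ranges at 30 and 32 °C overlapped.

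**Figure D2:**
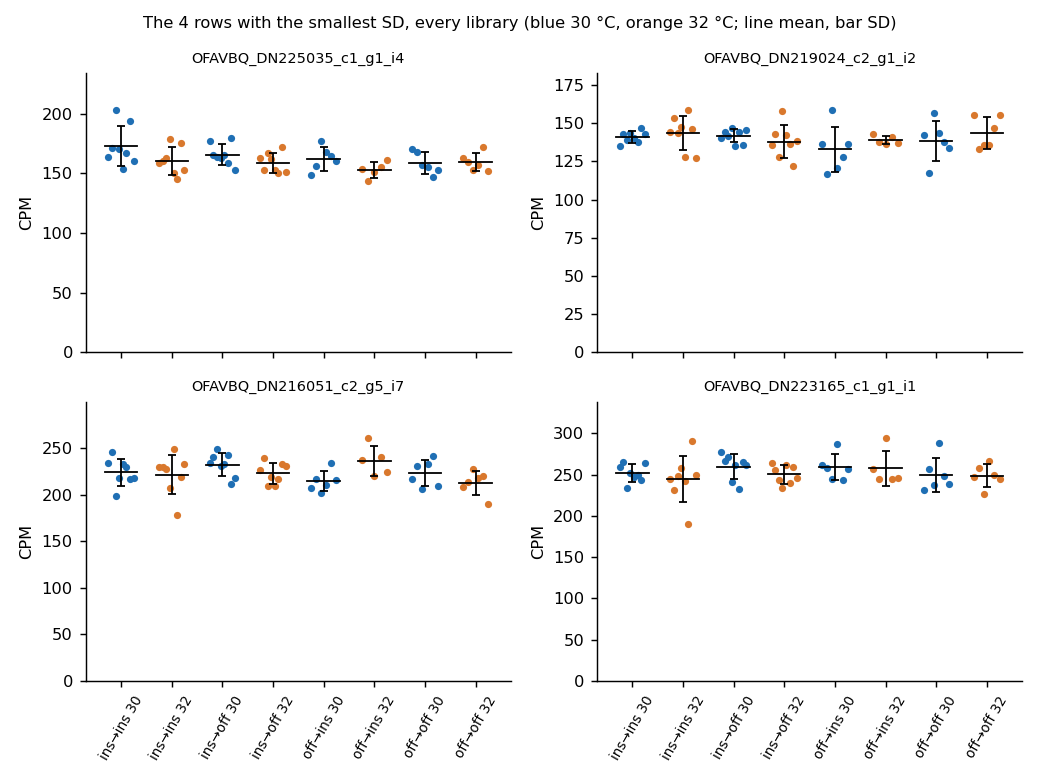
CPM in every library (points) of the 4 transcripts with the smallest SD, by group, named origin, then site, then temperature in °C; ins is inshore and off is offshore, lines are means and bars SDs. The y axes start at 0. OFAVBQ_DN225035_c1_g1_i4 stays between 143.7 and 203.3 CPM in all 8 groups.

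The extremes of the 200 transcripts were not spread evenly over the libraries. The 7 libraries that stand apart are 12.73% of all libraries and held 39% of the 400 highest or lowest values, 156 in number. Coral B3 at the inshore site and 32 °C alone held 72 (19 highest, 53 lowest), and coral B4 in that condition held 48 (44 highest, 4 lowest). Summed, the 200 made up 2.405% of the host counts in that B3 library and 2.845% in that B4 library, which are the lowest and the highest of the 55, and a median of 2.62%. The part of RNA quality or library preparation in this was not tested.

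The heat differences of all 200 transcripts lay within 1.25-fold. Over the 4 combinations of origin and site, the difference between 32 and 30 °C ran from -0.13 to 0.11 on the log2 scale, with a median of 0.01, and the median absolute difference was 0.035, against 0.116 over all 35219 rows tested. Their 95% intervals reached from -0.21 to 0.21, so the whole interval of each lay within that limit in either direction. All 200 entered the test, and 1 passed it (adjusted p under 0.05 in edgeR's quasi-likelihood test), beside 3.24% of all rows. At an unadjusted p under 0.05 it was 29, beside 15.7% of all rows. Nothing is read from these counts or limits, because a small spread over the same libraries chose the transcripts: an SD capped at 0.142 leaves little room for a difference between 28 and 27 of those libraries. The same holds for the site, origin, genotype and combined comparisons that follow, and limits in libraries not used in the choice are given at the end.

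The transcript that passed, OFAVBQ_DN218181_c1_g1_i3, ran from 99.08 through a median of 113.8 to 131.3 CPM at 30 °C, and from 90.79 through 103 to 123.2 at 32 °C. The ranges overlapped, and the level was higher at 32 °C in 4 of 27 pairs of fragments of 1 coral at 1 site. It fell by 0.13 ± 0.04 (SE) on the log2 scale (95% interval -0.21 to -0.05, edgeR adjusted p = 0.0498). No transcript of the set passed for heat with no low-count filter, without the coral block or with a term for library numbers 1 to 16, nor when any of 9 of the 14 corals was left out. It was 7 in DESeq2, beside 4.45% of rows, 3 in limma-voom, beside 3.67%, 3 with plain column sums, beside 2.7%, and 7 without the libraries that stand apart, beside 5.08%.

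OFAVBQ_DN218725_c1_g2_i1 had the next most negative difference, with medians of 248.3 CPM at 30 °C and 231.6 at 32 °C and overlapping ranges of 214 to 306 and 205.1 to 255.8. Its difference of -0.12 ± 0.04 (SE) gave an edgeR adjusted p of 0.0669. The most positive was OFAVBQ_DN215519_c0_g1_i3, from a median of 169.3 CPM to one of 183.1. It was higher at 32 °C in 24 of 27 pairs, with a difference of 0.11 ± 0.04 (SE) and an edgeR adjusted p of 0.167. OFAVBQ_DN207919_c1_g2_i3 followed, with medians of 98.23 and 104.5 CPM, a difference of 0.11 ± 0.04 (SE) and an edgeR adjusted p of 0.0954.

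Within single combinations of origin and site the intervals were wider. For inshore-origin corals kept at the inshore site, 174 of the 200 had a 95% interval within 1.25-fold, and all 200 within 1.5-fold. In these corals at the offshore site it was 193 within 1.25-fold. In offshore-origin corals it was 180 at the inshore and 177 at the offshore site, and all 200 within 1.5-fold in each. For inshore-origin corals kept inshore 1 transcript passed the test, beside 0.67% of all rows. In the other combinations none passed in edgeR, DESeq2 or limma-voom, beside 0.00852% of rows (inshore origin, offshore site), 0% (offshore origin, inshore site) and 0.162% (offshore origin, offshore site) in edgeR. At an unadjusted p under 0.05 it was 26 in inshore-origin corals kept inshore, beside 11.1% of rows, and 11 in those kept offshore, beside 5.94%. In offshore-origin corals it was 10 for the inshore site, beside 4.48%, and 9 for the offshore site, beside 9.58%.

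The transcript that passed there, named after its values were seen, was OFAVBQ_DN223556_c6_g1_i1. Over the 8 corals it ran from 52.19 through a median of 60.91 to 62.2 CPM at 30 °C, and from 53.32 through 68.81 to 73.42 at 32 °C, so the groups overlapped. The difference was 0.24 ± 0.06 (SE) on the log2 scale, with an edgeR adjusted p of 0.0411. No transcript of the set passed in this combination when scaled by plain column sums, with no low-count filter, without the coral block, without the libraries that stand apart or with the library-number term.

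The direction in which the set as a whole moved depended on the scaling. With TMM factors (which scale libraries by the middle of their log ratios), the median heat difference of the 200 was 0.06 at the inshore and -0.05 at the offshore site in inshore-origin corals, and 0.05 and -0.03 in offshore-origin corals. With plain column sums, the scale that chose the transcripts, these were 0.01, -0.02, 0.03 and 0.01. Coral B3 at the inshore site and 32 °C had the lowest ratio of TMM total to column sum, -0.42 on the log2 scale. Without the 7 libraries that stand apart, and with TMM, the values were -0.01, -0.04, 0.04 and -0.01. No direction is therefore given for the set.

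Differences between transplant sites were smaller. Offshore minus inshore ran from -0.08 to 0.08 on the log2 scale, and the 95% intervals from -0.15 to 0.17, so that all 200 lay within 1.25-fold. None passed the test in edgeR, DESeq2 or limma-voom, beside 0.386% of all rows in edgeR, and 1 had an unadjusted p under 0.05 in edgeR, beside 5.51% of rows. OFAVBQ_DN223741_c2_g2_i3 was lowest at the offshore site relative to the inshore site, with 140.4 ± 10.5 CPM (SD, n = 27) at the inshore and 132.2 ± 8.54 (n = 28) at the offshore site. OFAVBQ_DN220841_c1_g1_i1 followed with 122.2 ± 10.2 and 115.8 ± 8.73 CPM. In the other direction, OFAVBQ_DN216777_c3_g1_i3 measured 161.3 ± 12.2 and 168.4 ± 14.4 CPM and OFAVBQ_DN197596_c1_g1_i1 measured 277.5 ± 24.2 and 287 ± 31.6. In each of these the site difference was smaller than the SD among libraries of a site. That SD also holds differences between corals, origins and temperatures, so it is not a comparison within corals.

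Taken separately by origin and temperature, none of the 200 passed for site in edgeR. In inshore-origin corals this stood beside 0% of rows at 30 °C and 0% at 32 °C, with 5 and 15 of the 200 at an unadjusted p under 0.05, beside 5.2% and 8.33% of rows. In offshore-origin corals it stood beside 0.366% and 0.301%, with 6 and 6 at the unadjusted threshold, beside 4.89% and 4.58%. None passed in the tests of a difference between differences either: heat by origin (0% of rows), heat by site (0%) and site by origin (0.324%), with 0, 18 and 3 at an unadjusted p under 0.05, beside 4.99%, 5.84% and 8.67% of rows. DESeq2 and limma-voom also passed none in these tests. As a description of the chosen transcripts in the libraries that chose them, 193, 164 and 195 of the 200 had intervals within 1.25-fold, and all 200 within 1.5-fold in each.

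**Figure D3:**
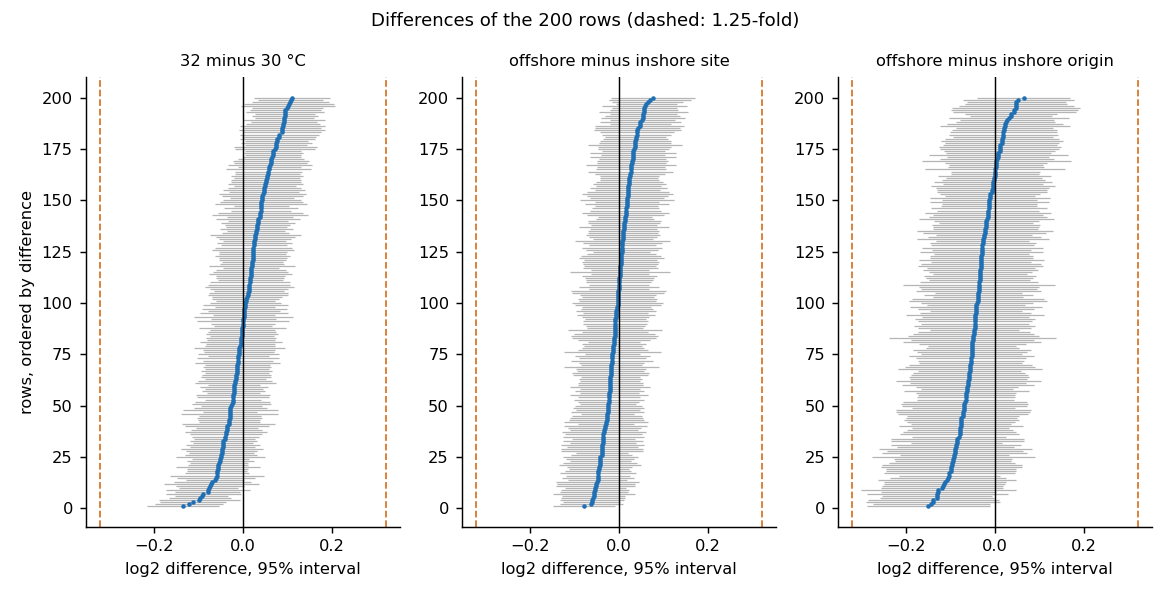
Log2 difference (blue point) with its 95% interval (grey line) for each of the 200 transcripts, ordered by difference, for temperature, transplant site and origin. The dashed lines mark 1.25-fold. Every interval lies between them, from -0.21 to 0.21 for heat, -0.15 to 0.17 for site and -0.30 to 0.19 for origin.

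Origin was compared over 6 genotypes against 6, since it varies between genotypes. Offshore minus inshore origin ran from -0.15 to 0.06 on the log2 scale with a median of -0.04, and the 95% intervals from -0.30 to 0.19, within 1.25-fold for all 200. None passed the test in edgeR, DESeq2 or limma-voom, beside 0% of all rows in edgeR, and 4 had an unadjusted p under 0.05 in edgeR, beside 5.15% of rows.

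The most negative was OFAVBQ_DN220476_c2_g1_i1, with genotype means of 181.7 to 223.4 CPM in inshore-origin and 163.6 to 181.9 in offshore-origin corals, so the origins overlapped narrowly. Its difference was -0.15 ± 0.06 (SE). OFAVBQ_DN218876_c1_g1_i10 followed at -0.14 ± 0.06 (SE), with genotype means of 53.08 to 60.71 and 48.58 to 53.86 CPM. The most positive, OFAVBQ_DN208424_c0_g1_i4, had 45.26 to 53.4 CPM in inshore-origin and 48.9 to 54.94 in offshore-origin genotypes, a difference of 0.06 ± 0.05 (SE). OFAVBQ_DN210298_c0_g1_i3 had 220.9 to 246.7 and 232.9 to 266 CPM, a difference of 0.05 ± 0.06 (SE).

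The range among the 12 genotype means of the 200 transcripts ran from 1.1-fold to 1.35-fold, with a median of 1.19-fold, against 1.62-fold over the level range. It stayed under 1.25-fold in 175 and under 1.5-fold in all 200, against 3511 of 8949 under 1.5-fold in the level range. The SD that chose the transcripts includes differences between genotypes. These ranges, and the coral distances, shares and genotype counts over the same 55 libraries, are therefore a description. Among the 3 corals of genotype In1 the range had a median of 0.09 on the log2 scale, against 0.25 among the 12 genotypes, and was the narrower in 196 of the 200. A range over 12 values is wider than one over 3 drawn alike, so the distance between single corals is the fairer measure: the median absolute difference of a pair of corals was 0.0604 within In1 (3 pairs) and 0.0765 between genotypes of inshore origin (25 pairs). It was 0.07 between genotypes of offshore origin (15 pairs) and 0.0759 between origins (48 pairs). Over the level range the same values were 0.133, 0.227, 0.179 and 0.199. The In1 corals share a collection site that no other coral has, so in In1 a shared genotype and a shared site cannot be told apart.

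Genotype within origin took a median of 27.4% of the sum of squares of the 200, on 18.5% of the degrees of freedom. Condition within origin took 11.4% on 11.1%, origin 2.07% on 1.85%, coral within In1 2.34% on 3.7%, and the residual 51.3% on 64.8%. Genotype took 35.1% and the residual 46.3% over the level range. The test of equal corals within each origin passed for 37 of the 200, beside 66.6% of all rows, and among the corals of In1 for none in edgeR or limma-voom, beside 0.261% in edgeR, with 4 at an unadjusted p under 0.05, beside 6.49%. The count of 37 moved with the settings: it was 18 with plain column sums (beside 66.2% of rows), 21 without the libraries that stand apart (64.7%) and 6 with no low-count filter (37.3%), and from 22 without coral C5 to 41 without coral C3.

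The transcripts with the widest range among genotypes were picked on that range in these libraries. Their ranges and genotype p are therefore a description. OFAVBQ_DN220476_c2_g1_i1 had the widest, 0.43 on the log2 scale. Coral B4 (genotype In7) averaged 223.4 CPM over libraries of 197.4 to 292.5, and the other inshore-origin corals averaged 175.9 to 195. The 292.5 CPM was its library from the inshore site at 32 °C, 1 of the 7 that stand apart, and without it B4 averaged 200.4 CPM. The genotype test gave an edgeR adjusted p of 0.0566. OFAVBQ_DN217715_c0_g1_i10 had its lowest mean in coral C3, at 63.6 CPM over libraries of 58.91 to 72.46, while the other corals averaged 74.4 to 83.7, with an edgeR adjusted p of 0.653.

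In OFAVBQ_DN223717_c1_g1_i5 the genotype means were graded instead. They ran from 98.7 CPM in C2, with libraries of 90.61 to 111.2, to 130.6 in B6, with libraries of 125.1 to 134.7, so C2 and B6 did not overlap, and the genotype test gave an edgeR adjusted p of 8.9e-05. The 3 corals of In1 averaged 114.2, 111.3 and 110.3 CPM. In OFAVBQ_DN214507_c0_g1_i3, picked in the same way, the means ran from 69.95 CPM in C2, with libraries of 65.81 to 72.63, to 93.1 in B2, with libraries of 88.52 to 97.84. These extremes again did not overlap (edgeR adjusted p = 0.00231). The In1 corals averaged 87.1, 84.99 and 81.3 CPM.

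**Figure D4:**
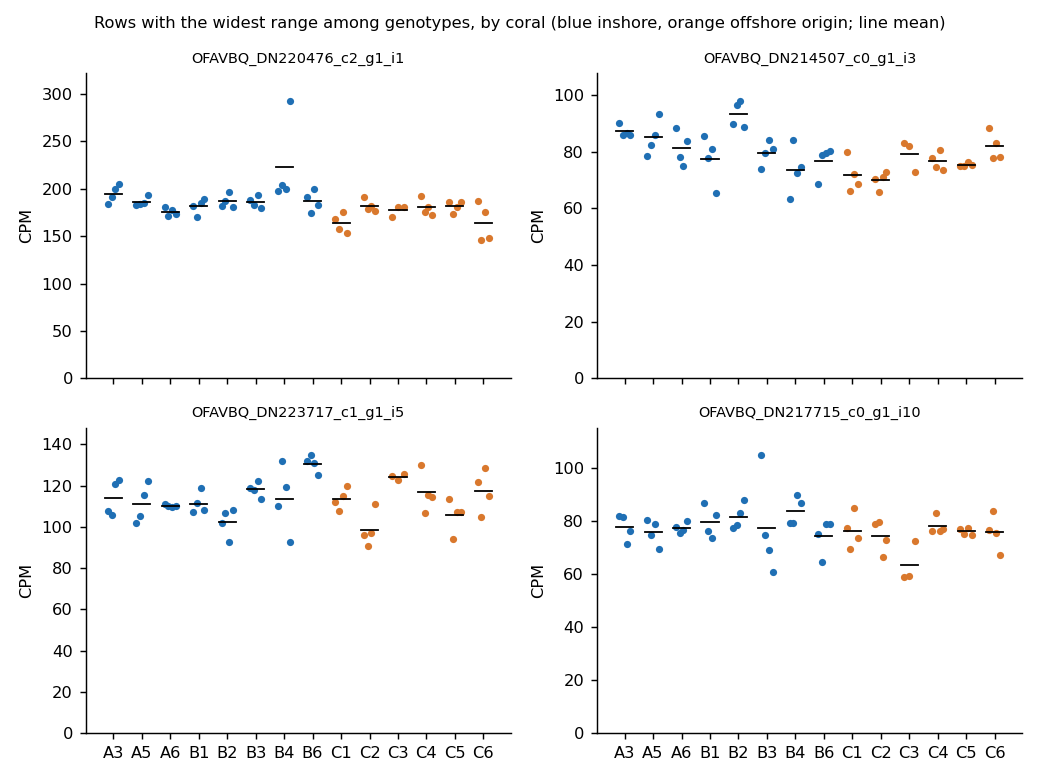
CPM in every library (points) and mean (line) by coral for the 4 transcripts with the widest range among genotype means; A3, A5 and A6 are 1 genotype (In1), and y axes start at 0. In OFAVBQ_DN223717_c1_g1_i5 all libraries of B6 (125.1 to 134.7 CPM) lie above all of C2 (90.61 to 111.2), the corals with its highest and lowest mean.

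Ratios of pairs of the 200 transcripts are a description only, since a small SD chose both members of each pair on the same libraries. The log2 ratio of a pair had an SD with a median of 0.171 over the 55 libraries and a range of 0.0859 to 0.248 over 19900 pairs, against a median of 0.512 in the level range. After coral and condition were taken off, 4.34% of pairs had an absolute correlation over 0.5, against 13.9% in the level range. This too is a description of transcripts chosen on those libraries. Counting error made up more of their variance, a median of 23.5% against 8.18%, and its part in these correlations was not tested. All 200 had a different DN number, the first part of the identifier, and 133 shared theirs with another row of the host table. The median number of rows with the same DN number was 2 in the set and in the level range alike. How alike such rows are in sequence, and whether reads were split between them, could not be checked.

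The libraries differed widely in symbiont counts, from 2865 to 1801987. The symbiont table bears the single name trenchii. Other algae, if present, may not be represented in it, so these counts are not a measure of all algae. As a description over 55 libraries that share corals and host totals, 2 of the 200 had a correlation over 0.5 in size with the log2 symbiont-to-host ratio of counts within groups, against 1.63% of the level range. These were OFAVBQ_DN214507_c0_g1_i3 (Pearson's r 0.568, Spearman's rho 0.496, and r 0.507 without the farthest pair of libraries) and OFAVBQ_DN217873_c3_g1_i4 (r -0.503, rho -0.514, and r -0.453). OFAVBQ_DN223125_c0_g4_i3 (r 0.486) and OFAVBQ_DN216409_c0_g1_i1 (r -0.49) were next. Coral B2 had the highest mean of OFAVBQ_DN214507_c0_g1_i3 and the highest ratio among inshore-origin corals in each condition. Genotype and symbiont ratio can therefore not be told apart there. No p is given, because fragments of 1 coral are not independent.

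Libraries that took no part in the choice show how far steadiness carried over. When the same rule was applied to the 32 inshore-origin libraries alone, 144 of its 200 transcripts were among the 200 above. In the 23 offshore-origin libraries they had a median SD of 0.134, against 0.125 where they were chosen and 0.287 for the level range. Of these, 198 were below that median and 150 in the lowest 10%. Chosen on the 23 offshore-origin libraries, of which 114 were among the 200 above, the transcripts had a median SD of 0.151 in the 32 inshore-origin libraries. This compares with 0.111 where they were chosen and 0.316 for the level range, with 199 below that median and 146 in the lowest 10%.

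The difference held at like levels. In each of 10 equal parts of the level range that held chosen transcripts, their median SD in the other origin was below that of all rows. Among the highest levels (149.1 to 498 CPM) it was 0.119 over 55 transcripts against 0.239 over 904 rows when chosen on inshore-origin libraries. When chosen on offshore-origin libraries it was 0.137 over 60 against 0.267 over 889 (147.2 to 497.3 CPM). Single transcripts did not carry over: the largest SD in the other origin was 0.554 in offshore-origin and 0.32 in inshore-origin libraries.

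**Figure D5:**
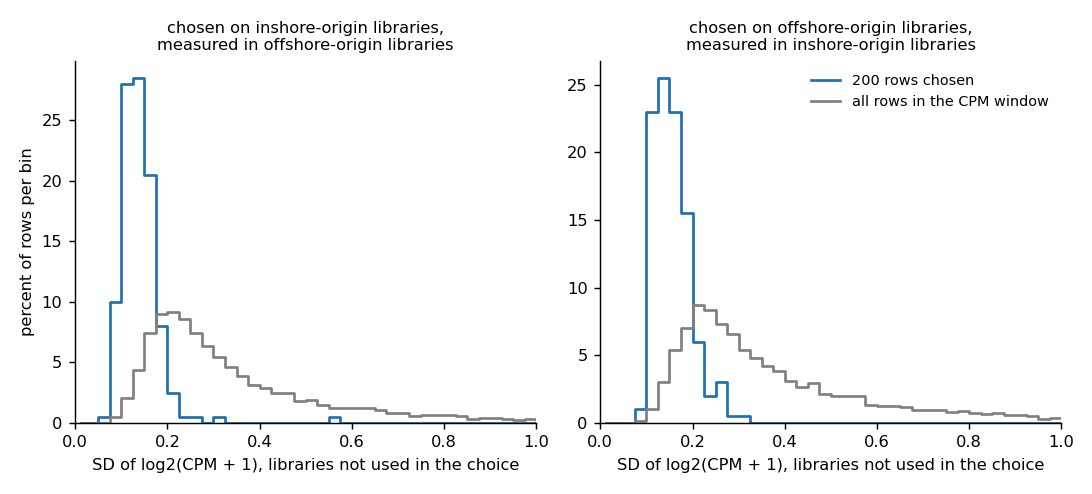
Distribution of the SD of log2(CPM + 1) (x axis) in libraries of the origin not used in the choice, as percent of transcripts per bin (y axis), for the 200 chosen (blue) and all in the level range (grey); values over 1 are not drawn. The medians are 0.134 against 0.287 (left) and 0.151 against 0.316 (right).

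In these libraries the counts of calls can be read against all rows. Chosen on inshore-origin libraries, none of the 200 passed for heat in the offshore-origin fit, beside 0.133% of 30795 rows, and none for site, beside 0.419%, in edgeR. At an unadjusted p under 0.05 it was 7 for heat, beside 10.7% of rows, and 2 for site, beside 5.75%. For genotype 12 passed, beside 44% of rows, and 19 had an unadjusted p under 0.05, beside 51.5%.

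Chosen on offshore-origin libraries, 2 passed for heat in the inshore-origin fit, beside 0.721% of 29680 rows, and none for site, beside 0.0101%. At an unadjusted p under 0.05 it was 19 for heat, beside 12.7%, and 6 for site, beside 9.01%. For genotype 41 passed, beside 56.3% of rows, and 48 had an unadjusted p under 0.05, beside 61.7%. At that unadjusted threshold the first choice thus had 3.5% for heat and 1% for site, below the shares of all rows. The second choice had 3% for site, also below, and 9.5% for heat, near the 12.7% of all rows, while its 2 adjusted calls for heat stood slightly above the share of all rows, so nothing is read from its heat counts. Without the libraries that stand apart, choosing and measuring alike, 2 passed for heat in the second choice, beside 3.32% of rows. More passed for heat when the second choice was made on TMM-scaled CPM, as given at the end with the other alternatives. The genotype tests in these libraries were added after the data were seen.

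These libraries also give limits that the choice did not set. In the first choice 198 of the 200 had a 95% interval within 1.25-fold for heat and 199 for site, with bounds from -0.34 to 0.33 for heat on the log2 scale. In the second it was 195 and 198, with bounds from -0.33 to 0.47 for heat. All 200 lay within 1.5-fold in each of these comparisons.

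The 2 that passed for heat were named after their values were seen and are not among the 200 above. OFAVBQ_DN215196_c2_g2_i3 had 52.84 to 68.7 CPM over the 23 offshore-origin libraries that chose it. In inshore-origin corals kept at the inshore site it ran from 43.19 to 71.58 CPM at 30 °C and from 61.13 to 108.7 at 32 °C, and at the offshore site from 48.2 to 63.19 and from 49.66 to 76.62. The 108.7 CPM was coral B4, 1 of the 7 libraries that stand apart. It rose by 0.32 ± 0.07 (SE) on the log2 scale in the inshore-origin fit (95% interval 0.17 to 0.47, edgeR adjusted p = 0.0395), and by 0.29 ± 0.05 (SE) without the libraries that stand apart (edgeR adjusted p = 0.0055). OFAVBQ_DN201029_c1_g2_i1 ran from 163.4 to 228.5 CPM in offshore-origin libraries. It fell by 0.23 ± 0.05 (SE) with heat in inshore-origin corals (edgeR adjusted p = 0.0297), with medians at the inshore site of 204.3 CPM at 30 °C and 182.4 at 32 °C, and at the offshore site of 213.6 and 182.8. In the test of heat by origin over all rows neither passed: the heat difference in offshore-origin minus that in inshore-origin corals was -0.30 ± 0.10 (SE, edgeR adjusted p = 0.99) for OFAVBQ_DN215196_c2_g2_i3 and 0.10 ± 0.07 (SE, edgeR adjusted p = 0.992) for OFAVBQ_DN201029_c1_g2_i1. Both were picked for a small spread in offshore-origin libraries and a heat call in inshore-origin ones. That choice itself favours a difference between origins, so nothing is read from these differences.

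Each coral was also left out of the choice in turn, but when A3, A5 or A6 was, the other corals of genotype In1 stayed in. The 200 transcripts so chosen had a median SD over the left-out coral's own libraries of 0.0776 (A3) to 0.174 (B3), against 0.14 to 0.335 over the level range, and 173 to 197 of them were below that coral's median. The mean of the left-out coral lay a median of 0.0485 to 0.0863 from the mean of the others on the log2 scale, against 0.122 to 0.217 over the level range. The largest such shift of a single transcript was 0.59, in coral C3.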

How the data were processed

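Libraries were stranded mRNA preparations of coral tissue, per the labels' protocols. The authors deposited estimated counts per isoform, not normalized, in a table taken here as the host's. A second table, with trenchii in its name, was taken as the symbiont's. The submitters' processing notes list Trimmomatic 0.36 and RSEM, whereas kallisto appears in the name of the tables. No source used here gives the quantifier's version or the reference. A single column per table matched no label and was left out (1 in each).

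CPM were counts over the column sum times 1000000, with a pseudocount of 1 on the log2 scale. Counts were rounded and tested in 1 fit over all host rows with edgeR 4.0.16 in R 4.3.3: filterByExpr (minimum count 10), TMM factors, quasi-likelihood F tests and Benjamini-Hochberg adjustment at 0.05. Coral was a block, because fragments of a coral are 1 animal: their deviations from the group means were correlated (mean 0.317 to 0.759 by coral). The origin test used counts added up by genotype. A 95% interval comes from the standard error of 1 difference and is not adjusted over the set. Depth limits precision as counting error, which was computed as Poisson variance. The steps were tested on simulated data. DESeq2 1.42.0 and limma 3.58.1 (voom) were alternatives.

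The transcripts and tests were chosen with earlier results of these data known. Named transcripts are the 4 steadiest, those at the edge of the set, the extremes of heat, site, origin, genotype range, level and correlation with the symbiont ratio, and those past a test of a difference between differences, of which there were none. Those named otherwise are marked in the text.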

Additional observations from a re-analysis of the deposited data

Results flagged for a closer look

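In 3 of 48 groups of libraries or genotypes looked at, 1 value lay far from the rest by Dixon's criterion at 95%, which flags about 1 group in 20 by chance. OFAVBQ_DN223165_c1_g1_i1 measured 294.3 CPM in coral C4 of offshore origin at the inshore site at 32 °C, where the median was 246.3. C4 also gave the highest library of this transcript in the other 3 groups of offshore-origin corals, up to 288 CPM. OFAVBQ_DN220476_c2_g1_i1 averaged 223.4 CPM in genotype In7 (coral B4), against 181.7 to 187.2 in the other inshore-origin genotypes. OFAVBQ_DN210298_c0_g1_i3 averaged 266.0 CPM in genotype O6 (coral C6), against 232.9 to 244.3 in the other offshore-origin genotypes.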

How the results depend on the processing

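Which transcripts are the 200 steadiest depends on the scaling. Of the 200, the rule chose 92 again with TMM-scaled CPM, 83 with RLE-scaled CPM and 98 with CPM over host and symbiont counts. It chose 98 again with the median absolute deviation, 131 with the SD within corals, 129 without the libraries that stand apart and, an alternative added after seeing the data, 116 with TMM and without those libraries. With the counting variance taken off, also added after seeing the data, it chose 138 again. Leaving out each coral kept 155 to 191. The median SD of the 200 was 0.1399 with TMM, 0.1407 with RLE and 0.1942 over host and symbiont counts, against 0.1281, and the median genotype range was 0.4755 over host and symbiont counts, against 0.2496 on the log2 scale.

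For heat, 1 transcript passed in the main fit, 3 with plain column sums, 0 with no low-count filter, 7 in DESeq2, 3 in limma-voom and 7 without the libraries that stand apart, and 0 to 3 when each coral was left out. Without the replicate block it was 0, and with library numbers 1 to 16 as a term next to the block 0. For inshore-origin corals kept at the inshore site, 1 passed, and 0 with plain column sums, no low-count filter, no replicate block, without the libraries that stand apart or with the number term next to the block, and 0 to 1 over corals left out. For genotype 37 passed, 18 with plain column sums, 6 with no low-count filter, 21 without the libraries that stand apart, and 22 to 41 over corals left out. Chosen on offshore-origin libraries, 2 passed for heat in the inshore-origin fit, beside 0.721% of 29680 rows. When chosen on TMM-scaled CPM it was 4, further above that share, so transcripts chosen as steady on that scale gave more heat calls than rows in general. Without the replicate block it was 1, and the share of all rows in that fit is not given here. The causes were not tested. Of 33 results, 26 moved under no alternative run, but this tally is no measure of stability. Not moved does not mean unchanged. The largest log2 heat difference of a transcript, 0.1346 in the main fit, was counted as not moved at 0.1735 without coral C5. The largest site difference, 0.07846, was counted so at 0.09964 without coral C4. Counts within 1.25-fold and counts of 0 past a test, as for site, are also among the 26. Over the libraries that chose the transcripts such counts say nothing of stability, since the limit on the SD largely fixes them.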
